A study of Mus musculus with 30 samples.

Results

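Gene expression was compared between the livers of PPARα-null (Null) and wild-type (WT) mice that received no perfluorooctane sulfonate (PFOS). The arrays were chosen by their labels alone, which gave 5 Null and 5 WT arrays at 0 mg/kg, 10 of the 30 arrays of the series. All mice were males of 6 to 9 months given the dosing vehicle by gavage for 7 days. Null mice were of the strain 129S4/SvJae-Pparatm1Gonz/J, which lacks a working Ppara gene in every cell, and WT mice were 129S1/SvlmJ. Genotype and substrain therefore cannot be told apart in any comparison here. RNA came from the left lobe of the liver, 1 array per mouse, so that fewer cells of a type and less RNA per cell cannot be told apart either. Treated mice of the same strains at 3 and 10 mg/kg PFOS, 5 arrays per genotype and dose, served as further comparisons of the genotypes that share no array with the untreated mice.

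PPARα is a nuclear receptor that pairs with RXR, binds direct repeats of a short half-site in DNA, and is switched on by fatty acids and by fibrate drugs. In hepatocytes it is known for raising the genes of fatty acid uptake, of peroxisomal and mitochondrial β-oxidation, of ketone body synthesis, and of lipid droplet handling, above all during fasting. Mice without it are known to burn fatty acids poorly when food is withheld.

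Before the genotypes were compared, 2 of the WT arrays had to be set apart. Over the mean of its 3 probe sets, Ppara read 10.62, 10.45 and 10.33 in WT replicates 1 to 3 (log2 signal), but 8.66 and 8.74 in WT replicates 4 and 5. The 5 Null arrays read 9.76, 9.40, 9.39, 9.81 and 9.58. WT replicates 4 and 5 thus lay below every untreated Null array, while the treated WT arrays all read between 9.93 and 10.77 and the treated Null arrays between 8.78 and 9.53. The labels do not say which part of the transcript each probe set reads, and the Null arrays kept a signal at all 3. Cyp2b10, a cytochrome P450 that responds to the xenobiotic receptor CAR, read 8.16, 7.82 and 8.20 in WT replicates 1 to 3 and 12.80 and 12.93 in replicates 4 and 5. The Null arrays at 0 mg/kg read between 6.78 and 9.06, and levels of 12 and above were otherwise reached in the treated groups.

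**Figure D1:**
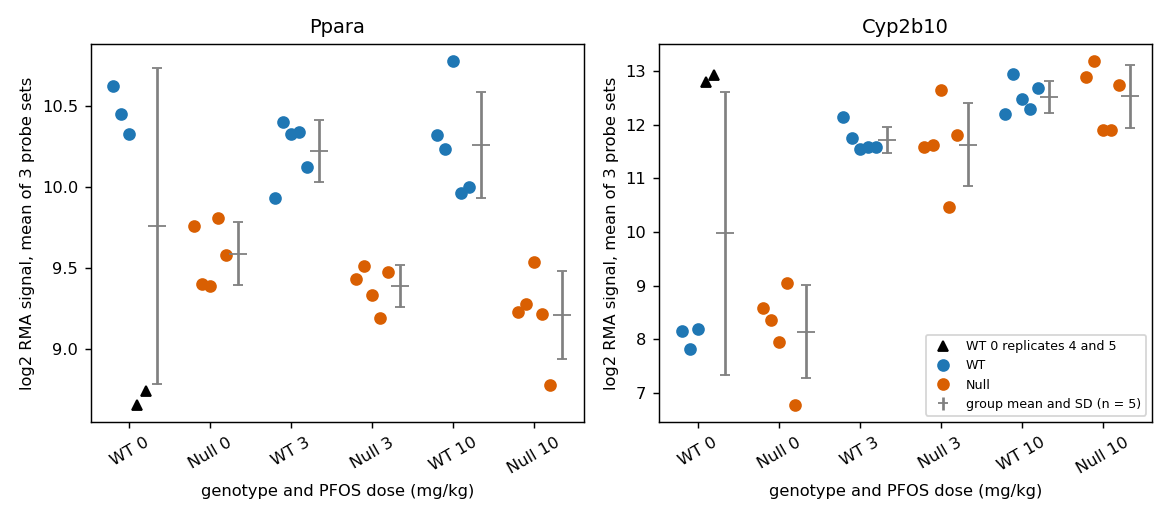
Log2 RMA signal (mean of 3 probe sets) of Ppara and Cyp2b10 on each of the 30 arrays, by genotype and PFOS dose in mg/kg. Points are arrays, triangles are WT 0 mg/kg replicates 4 and 5, and the bars give each group's mean and SD (n = 5). At 0 mg/kg the triangles read 8.66 and 8.74 for Ppara and 12.80 and 12.93 for Cyp2b10, away from the other 3 WT arrays in both panels.

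The untreated arrays were then placed on genes chosen in the treated mice alone. There were 67 genes called in one direction at both 3 and 10 mg/kg with a genotype difference of at least 2-fold at each. On these genes WT replicates 1 to 3 lay nearer the mean of the treated Null arrays than that of the treated WT arrays at 40.3%, 32.8% and 55.2% of genes. WT replicates 4 and 5 did so at 94.0% and 95.5%, and the 5 Null arrays at 92.5% to 97.0%. Both means come from mice given PFOS, so genotype and a response to PFOS that differs by genotype cannot be told apart on this scale. Over all probe sets kept, deviations from the mean of the 30 arrays were correlated with those of each group. WT replicates 4 and 5 correlated at 0.38 and 0.39 with Null 10 mg/kg, and at -0.42 and -0.54 with WT replicates 1 to 3. With Null 0 mg/kg the same 2 arrays correlated at -0.345 and -0.285, and with Null 3 mg/kg at -0.008 and -0.121. With WT 3 mg/kg they correlated at -0.286 and -0.274, and with WT 10 mg/kg at 0.159 and 0.229. Not every gene placed them with the Null mice: over the 54 PPARα target genes measured, the mean level was 10.15, 10.33 and 10.00 in WT replicates 1 to 3, 10.03 and 10.10 in replicates 4 and 5, and 9.57 to 9.96 in the Null arrays. What these 2 arrays are was not tested. The comparison is therefore given for all 10 arrays as labelled (the labelled comparison) and without WT replicates 4 and 5 (the reduced comparison, 3 WT and 5 Null arrays). The reduced comparison was made because of the levels of Ppara and Cyp2b10, so neither gene is tested in it. Its calls of genes that go with either gene across the WT arrays are not free of that choice.

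**Figure D2:**
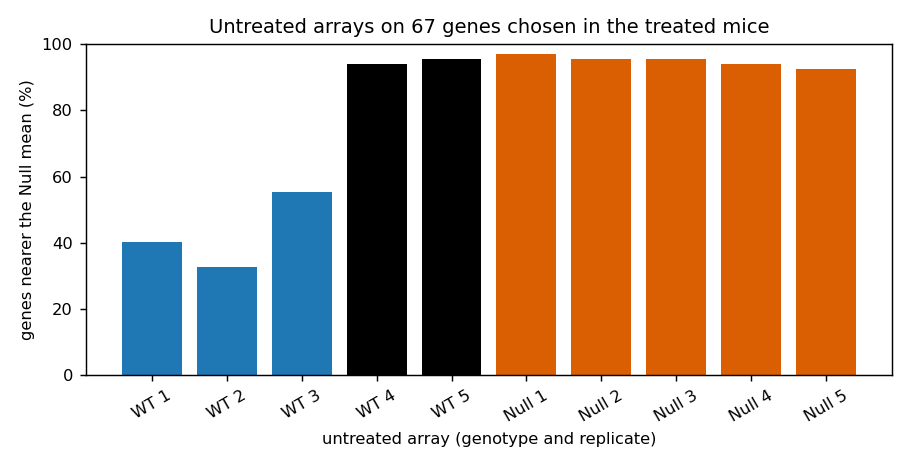
Share of 67 genes, in percent, at which each untreated array lay nearer the mean of the treated Null arrays than that of the treated WT arrays. Black bars are WT 0 mg/kg replicates 4 and 5, at 94.0% and 95.5%, inside the span of the 5 Null arrays (92.5% to 97.0%), and the blue bars of the other WT arrays end between 32.8% and 55.2%.

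The arrays held liver by its defining markers. The mean level of 9 hepatocyte markers lay between 13.43 and 13.62 on all 10 arrays, and neither of the 2 markers of exocrine pancreas named on the array passed the filter on weak probe sets. Of the 59 genes measured on 11 marker lists for liver, blood and other cell types, 0 were called in limma in either comparison of the untreated mice (4 and 7 at an unadjusted p under 0.05, 0 by the methods' t-test after Benjamini-Hochberg adjustment). Among all 12156 genes, 0.485% were called as labelled and 2.21% in the reduced comparison, and 1967 and 2197 reached that unadjusted p. With so few markers, 0 calls cannot be told from these shares. WT replicate 3 stood apart in immune genes: its 4 B cell markers averaged 7.95, against 6.38 and 6.37 in WT replicates 1 and 2 and 6.28 to 6.63 in the Null arrays, and its 15 markers of Kupffer cells and macrophages averaged 9.44, against 8.45 and 8.51 in those WT arrays and 8.72 to 9.14 in the Null arrays. The 2 neutrophil markers measured averaged 8.23 and 7.94 in WT replicates 4 and 5 and at most 6.47 on the other 8 arrays. Their part in the differences below was not tested.

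With all 10 arrays as labelled, 59 of 12156 genes differed between Null and WT mice at an adjusted p under 0.05 in limma (0.485% of genes tested), 28 higher in Null mice (0.230%) and 31 lower (0.255%). An unadjusted p under 0.05 was reached by 1967 genes. The called differences were mostly small, with a median size of 0.54 on the log2 scale and 6 of at least 2-fold. In all 59 genes the 5 Null arrays lay on one side of the 5 WT arrays, which was so for 4.78% of all genes. This count was fragile. It fell to 2, 6, 5 and 3 without Null replicate 2, 3, 4 or 5, to 13 without WT replicate 1 and to 27 without WT replicate 4. With quantile normalization repeated over the 10 arrays it came to 41, 12 higher and 29 lower, which moved the split towards lower genes, and Evc, Sult5a1 and Rdh5, described below, were then not called.

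In the reduced comparison 269 genes were called (2.21%), 123 higher in Null mice (1.01%) and 146 lower (1.20%). An unadjusted p under 0.05 was reached by 2197 genes. Ppara is counted among the lower genes, but it was used to leave the 2 arrays out, so that its call is no result. Without it 268 genes were called, 145 of them lower. The median size of a called difference was 0.60, and 53 genes differed by at least 2-fold. All 269 had Null and WT arrays that did not overlap, against 14.0% of all genes, a share that is higher with 3 WT arrays than with 5. The count fell to 135 and 146 without WT replicate 1 or 2, and to 167, 157, 160 and 163 without Null replicate 2, 3, 4 or 5. Over the 269 genes WT replicates 4 and 5 lay nearer the Null mean at 186 and 193 and nearer the mean of the other WT arrays at 83 and 76. The labelled and reduced comparisons share 8 arrays and are not separate evidence.

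The first enzymes and carriers to describe are those that bring fatty acids into mitochondria, of which both carnitine carriers described here, Slc25a20 and Slc22a5, were lower in Null mice in both comparisons. Slc25a20 encodes the carnitine-acylcarnitine carrier of the inner mitochondrial membrane. It read 10.79, 10.84 and 10.57 in WT replicates 1 to 3, 10.12 and 10.18 in WT replicates 4 and 5, and 9.28, 9.47, 9.25, 9.67 and 9.30 in the Null arrays. Every WT array, replicates 4 and 5 included, lay above every Null array. The difference was -1.11 ± 0.15 (SE) as labelled (2.15-fold, adjusted p = 0.0254) and -1.34 ± 0.11 in the reduced comparison (2.53-fold, adjusted p = 0.000413). Slc22a5, the plasma membrane carnitine transporter, read 9.06, 9.03 and 8.54 in WT replicates 1 to 3, 9.33 and 9.32 in replicates 4 and 5, and 8.02, 8.12, 8.10, 8.25 and 8.24 in Null mice. For this gene the doubted WT arrays were the highest of all, and the groups did not overlap. It was lower in Null mice by -0.91 ± 0.13 (adjusted p = 0.0254) and by -0.73 ± 0.12 (adjusted p = 0.0143). Cpt2, which rebuilds acyl-CoA inside the mitochondrion, differed by -0.75 ± 0.15 as labelled, without passing the test (adjusted p = 0.0594), and was 2-fold lower in the reduced comparison (SE 0.10 on the log2 scale, adjusted p = 0.00121). Cpt1a, the outer carnitine palmitoyltransferase known as the rate-limiting step, did not pass in either, with differences of -0.12 ± 0.12 and -0.26 ± 0.12, and its Null arrays (11.40 to 11.97) overlapped WT replicates 1 to 3 (11.89 to 12.04). The call of Slc25a20 as labelled was lost without Null replicate 2, 3 or 5, and that of Slc22a5 without WT replicate 1 or Null replicate 2, 3, 4 or 5. In the reduced comparison Slc25a20 and Cpt2 passed under every alternative tried, and Slc22a5 failed without WT replicate 1 or 2 and with a block for the replicate number. These alternatives, and those named for single genes below, were other probe sets, normalizations, fits and array sets. They did not include the methods' t-test, the filters on weak probe sets or a fold threshold. The losses listed for single genes are those without single arrays. The replicate block ended every labelled call, and the reduced calls it ended are given in the last section.

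Within the mitochondrial spiral the genes did not all move alike. Acadl, the long-chain acyl-CoA dehydrogenase, read 11.69, 11.86, 11.73, 11.73 and 11.69 in WT replicates 1 to 5 and 10.61, 11.12, 11.04, 11.13 and 11.22 in Null mice. WT replicates 4 and 5 could not be told from the other WT arrays at this gene, and its difference was -0.72 ± 0.10 as labelled (adjusted p = 0.0254) and -0.73 ± 0.13 in the reduced comparison (adjusted p = 0.0194). Acadvl, the very-long-chain enzyme, read 12.57, 12.75 and 12.51 in WT replicates 1 to 3, 11.75 and 11.65 in replicates 4 and 5, and 11.45 to 11.85 in Null mice. Here the doubted arrays lay inside the Null range, so that the labelled difference of -0.59 ± 0.20 did not pass (adjusted p = 0.18) and the reduced one of -0.95 ± 0.10 did (adjusted p = 0.00114). Eci1, an isomerase needed for unsaturated fatty acids, was lower by -0.80 ± 0.10 (adjusted p = 0.0229) and -0.86 ± 0.11 (adjusted p = 0.00435). Acads, for short chains, and the electron carriers Etfb and Etfdh passed in the reduced comparison alone, with differences of -0.39 ± 0.07, -0.50 ± 0.07 and -0.66 ± 0.08, against -0.20, -0.33 and -0.34 as labelled. Acadm, the medium-chain enzyme, read 12.71 to 13.08 in WT and 12.86 to 13.01 in Null mice and did not pass, and Hadha, of the trifunctional protein, differed by -0.13 ± 0.08 and -0.20 ± 0.08 without passing. Of the 24 measured members of the mitochondrial list, 4 fell and 0 rose as labelled and 9 fell and 0 rose in the reduced comparison, beside 0.255% and 1.20% of all genes that fell, with median differences of -0.12 and -0.17. The medians of all genes were 0.01 and 0.00. Leaving out single arrays ended the labelled calls of Acadl (WT replicate 1, Null replicate 2, 3, 4 or 5) and Eci1 (Null replicate 2, 3 or 5). It ended the reduced calls of Acadl (any of WT replicates 1 to 3) and Acads (any WT array, Null replicate 2, 3, 4 or 5).

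The peroxisomal enzymes, which shorten very long and branched fatty acids, fell in part. Eci2, a peroxisomal isomerase, read 11.45, 11.54 and 11.20 in WT replicates 1 to 3, 10.84 and 10.84 in replicates 4 and 5, and 9.93, 10.19, 10.14, 10.42 and 10.26 in Null mice. The doubted arrays fell between both groups. The difference was -0.98 ± 0.15 (adjusted p = 0.0254) and -1.21 ± 0.12 (adjusted p = 0.000878). Ech1, a dienoyl-CoA isomerase, was lower by -0.87 ± 0.13 (adjusted p = 0.0265) and -0.98 ± 0.15 (adjusted p = 0.0102). Decr2, the peroxisomal dienoyl-CoA reductase, read 10.94, 10.64 and 10.67 in WT replicates 1 to 3 against 8.86, 8.96, 9.08, 9.44 and 8.96 in Null mice, and 8.89 and 8.84 in WT replicates 4 and 5. With those 2 arrays at the Null level, the difference was -0.94 ± 0.40 as labelled (adjusted p = 0.27) and -1.69 ± 0.13 without them (3.23-fold, adjusted p = 0.000268). Hsd17b4, the bifunctional enzyme for branched chains, differed by -0.46 ± 0.09 (adjusted p = 0.0536) and -0.58 ± 0.08 (adjusted p = 0.00527). Ehhadh, the other bifunctional enzyme and a common marker of PPARα activation, did not pass in untreated liver, with 11.10, 11.41 and 10.99 in WT replicates 1 to 3 against 10.99 to 11.53 in Null mice. WT replicates 4 and 5 had more of it than any of these, 12.00 and 12.17. Of 20 peroxisomal genes 2 fell as labelled and 4 in the reduced comparison, beside 0.255% and 1.20% of all genes, and 0 rose. A second list, of 20 peroxisome assembly and membrane proteins, had 1 gene higher as labelled (Pex2, an assembly factor, 0.34 ± 0.06, adjusted p = 0.0498) and 2 lower in the reduced comparison, beside 0.230% and 1.20% of all genes. The call of Pex2 was lost without any array but WT replicate 3. Pex11a, which drives division of peroxisomes, and Pxmp4, a peroxisomal membrane protein, fell in the reduced comparison, by -0.53 ± 0.10 (adjusted p = 0.0252) and -1.13 ± 0.12 (adjusted p = 0.0014), but did not pass as labelled (-0.36 and -0.73). The labelled calls of Eci2 and Ech1 were lost without WT replicate 1 or Null replicate 2, 3, 4 or 5, and the reduced call of Pex11a without WT replicate 1 or 2 or Null replicate 3 or 5.

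**Figure D3:**
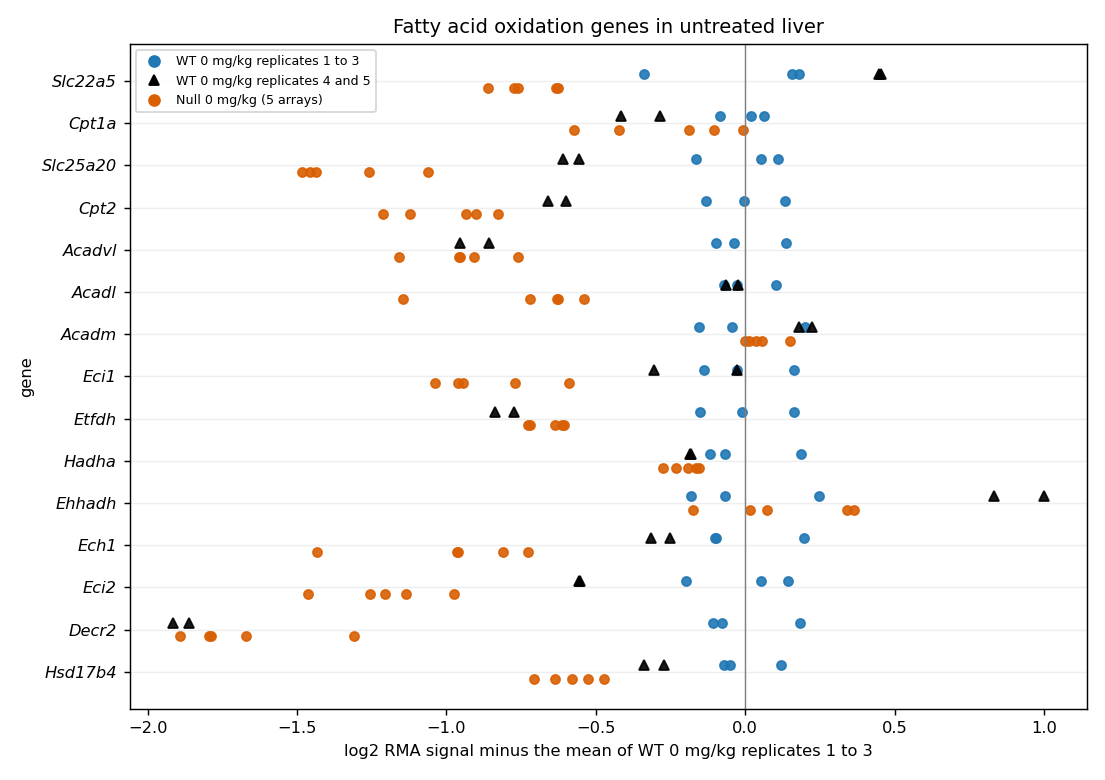
Fatty acid oxidation genes on the 10 untreated arrays, as log2 RMA signal minus the mean of WT 0 mg/kg replicates 1 to 3. Blue points are WT replicates 1 to 3, black triangles WT replicates 4 and 5 and orange points the 5 Null arrays. At Acadl the triangles lie with the WT points, at Decr2 with the Null points, and at Ehhadh above both.

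Some genes of lipid droplets were lower in Null mice. Plin5, a droplet coat protein that tethers droplets to mitochondria, read 9.91, 10.38 and 9.93 in WT replicates 1 to 3, 7.59 and 7.32 in WT replicates 4 and 5, and 7.49, 7.91, 7.43, 8.03 and 7.54 in Null mice. The difference was -2.40 ± 0.16 in the reduced comparison (5.26-fold, adjusted p = 0.000136) and -1.35 ± 0.55 as labelled (adjusted p = 0.255). The 3 WT arrays kept in the reduced comparison lay far above all others, and the doubted arrays lay at or just below the Null range. Fitm2, which partitions fat into droplets, was lower in both comparisons by a smaller step, -0.45 ± 0.08 (adjusted p = 0.0405) and -0.53 ± 0.08 (adjusted p = 0.0103), and its relative Fitm1 by -1.34 ± 0.24 in the reduced one (adjusted p = 0.0236) but not as labelled (-0.89 ± 0.30, adjusted p = 0.18). Hsd17b11, a droplet-bound dehydrogenase, fell by 0.65 ± 0.10 in the reduced comparison (adjusted p = 0.0107) and did not pass as labelled (-0.42 ± 0.15, adjusted p = 0.19). Plin2, the coat protein that usually tracks droplet mass, was not called, with 12.15 to 12.56 in Null mice against 12.54, 13.13 and 12.82 in WT replicates 1 to 3. In the list of 22 droplet proteins and lipases, 1 fell as labelled and 4 in the reduced comparison, beside 0.255% and 1.20% of all genes. Among these calls, Plin5 held under every alternative in the reduced comparison. Fitm1 was lost without WT replicate 1, 2 or 3 or Null replicate 2, 3 or 5, Fitm2 without WT replicate 1, and Hsd17b11 without WT replicate 2. As labelled, Fitm2 was lost without WT replicate 1, 2 or 4 or Null replicate 2, 3, 4 or 5.

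Of 3 further genes, Creb3l3 was lower in both comparisons, and Vnn1 and Fgf21 in the reduced one alone. Vnn1, a pantetheinase, read 7.80, 7.48 and 7.26 in WT replicates 1 to 3, 4.19 and 4.01 in replicates 4 and 5, and 4.54, 4.43, 4.31, 6.31 and 4.25 in Null mice. Null replicate 4 stood well above the other Null arrays and still below WT replicates 1 to 3. The reduced difference was -2.75 ± 0.41 (6.71-fold, adjusted p = 0.00975), and as labelled it was -1.38 ± 0.77 (adjusted p = 0.4). Null arrays other than replicate 4 lay below 5.65, the median of all values, so this fold is set against weak signals. Fgf21, the fasting hormone of the liver, read 6.47, 7.82 and 7.47 in WT replicates 1 to 3 and 4.90, 5.64, 5.51, 5.68 and 5.69 in Null mice. It differed by -1.77 ± 0.28 (adjusted p = 0.0119) without the doubted arrays, which read 5.29 and 5.46, and by -1.02 ± 0.45 as labelled, without passing (adjusted p = 0.281). Creb3l3, a liver transcription factor of fasting that raises Fgf21, differed by a small step: 11.97, 11.99, 11.93, 11.88 and 11.97 in the 5 WT arrays against 11.44, 11.52, 11.43, 11.59 and 11.64. Its difference passed in both comparisons, at -0.42 ± 0.06 (adjusted p = 0.0254) and -0.44 ± 0.07 (adjusted p = 0.0139). The labelled call was lost without WT replicate 1 or Null replicate 2, 3, 4 or 5, and the reduced one without WT replicate 1 or 2. Vnn1 and Fgf21 passed in the reduced comparison under every alternative for single genes. By the methods' t-test after adjustment, which was not among these, 0 of 8 ketone body genes passed there, Fgf21 included, beside 117 of all 12156 genes.

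Over the whole list of 54 measured PPARα target genes, 7 fell and 0 rose as labelled, beside 0.255% and 0.230% of all genes. In the reduced comparison 19 fell and 4 rose, beside 1.20% and 1.01%. The WT arrays left out there were chosen partly for low Ppara, so these reduced counts are not free of that choice. The same holds for the reduced counts of the oxidation and droplet lists above. The median member differed by -0.24 and -0.34. That left most targets uncalled in untreated liver. Cyp4a14, a fatty acid hydroxylase and the target with the widest range, read 10.28, 11.11, 8.68, 8.64 and 9.76 in WT mice and 5.83, 9.19, 5.78, 12.20 and 5.33 in Null mice. Null replicate 4 held the highest value of all 10 arrays, the groups overlapped, and the difference of -2.03 ± 1.17 had an adjusted p of 0.418.

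The 4 target genes that were higher in Null mice in the reduced comparison were 3 acyl-CoA thioesterases and a kinase. Acot1, the cytosolic thioesterase, read 6.89, 7.85 and 5.96 in WT replicates 1 to 3 and 9.35, 9.38, 8.75, 8.97 and 9.23 in Null mice. It was higher by 2.23 ± 0.34 (4.7-fold, adjusted p = 0.00966), and by 0.93 ± 0.72 as labelled (adjusted p = 0.557), since WT replicates 4 and 5 read 10.11 and 10.23, above every Null array. Acot2, its mitochondrial relative, read 7.92, 8.09 and 8.08 against 8.68, 8.86, 8.85, 8.78 and 8.88, with 9.75 and 9.67 in the doubted arrays, a difference of 0.78 ± 0.08 (adjusted p = 0.000878). Acot4, a peroxisomal member, rose by 0.85 ± 0.16 (adjusted p = 0.0289), and Pdk4, which shuts off pyruvate oxidation, by 0.90 ± 0.19 (adjusted p = 0.0406). As labelled these 3 did not pass, with 0.11 ± 0.35 for Acot2 (adjusted p = 0.907), 0.34 ± 0.30 for Acot4 (adjusted p = 0.611) and 0.49 ± 0.27 for Pdk4 (adjusted p = 0.399). In all 4 genes the doubted WT arrays lay above WT replicates 1 to 3. Acot1, Acot2 and Acot4 are close copies whose probe sets may share signal. In the same comparison Acot8, a peroxisomal thioesterase, was lower by -0.35 ± 0.07 (adjusted p = 0.0384), against -0.20 ± 0.10 as labelled (adjusted p = 0.331). Acot1 and Acot2 held under every alternative for single genes, which did not include the methods' t-test. By that test after adjustment, 1 of 18 genes of acyl-CoA thioesterases and CoA turnover passed in the reduced comparison, beside 117 of all 12156 genes. Without single arrays Acot4 was lost (WT replicate 1, Null replicate 2, 3, 4 or 5), as was Pdk4 (WT replicate 1 or 3, Null replicate 1, 2, 3 or 4) and Acot8 (WT replicate 1 or 2, Null replicate 1, 2, 3 or 5).

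The largest called increases lay outside the oxidation pathways. Sult1e1, the estrogen sulfotransferase, read 4.98, 5.34 and 6.49 in WT replicates 1 to 3, 9.42 and 7.65 in replicates 4 and 5, and 10.28, 9.54, 9.38, 8.44 and 9.82 in Null mice. Serpinb1a, an inhibitor of neutrophil proteases, read 5.32, 5.29 and 4.93, then 8.68 and 8.85, and 9.54, 9.16, 8.81, 8.66 and 8.83. The doubted arrays lay inside the Null range of Serpinb1a. For Sult1e1 replicate 4 did, and replicate 5 lay between the groups. The reduced differences were 3.88 ± 0.41 (14.8-fold, adjusted p = 0.0014) and 3.82 ± 0.18 (14.1-fold, adjusted p = 1.87e-05), the largest positive ones called, and the labelled differences of 2.71 ± 0.72 and 2.39 ± 0.75 did not pass. WT replicates 1 to 3 of Serpinb1a, and WT replicates 1 and 2 of Sult1e1, lay below 5.65, the median of all values. These folds are therefore set against weak signals. Pparg, the sister receptor best known from fat cells, was higher in Null mice, with 7.47, 8.36, 7.83, 7.53 and 7.99 against 6.33, 6.48 and 6.75. It rose by 1.32 ± 0.19 (adjusted p = 0.0075), and the doubted arrays read 8.08 and 8.06, with which the difference was 0.70 ± 0.35 and did not pass (adjusted p = 0.35). Apoa4, an apolipoprotein of triglyceride-rich particles, was higher in both comparisons, by 0.70 ± 0.10 (adjusted p = 0.0254) and 0.82 ± 0.10 (adjusted p = 0.00358). Its WT arrays read 12.99 to 13.41 and its Null arrays 13.74 to 14.12. Vldlr, a receptor for such particles, was higher by 1.21 ± 0.22 in the reduced comparison (adjusted p = 0.021) and by 0.93 ± 0.23 as labelled, without passing (adjusted p = 0.0911), the reduced call being lost without WT replicate 1, 2 or 3 or Null replicate 2. The labelled call of Apoa4 was lost without WT replicate 1 or Null replicate 2, 3, 4 or 5.

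The largest negative difference of the reduced comparison was that of Cox6b2, an isoform of a respiratory chain subunit best known from testis. It read 8.08, 8.66 and 8.44 in WT replicates 1 to 3, 5.44 and 5.21 in replicates 4 and 5, and 5.21, 5.16, 4.78, 6.66 and 4.88 in Null mice, a difference of -3.05 ± 0.37 (8.31-fold, adjusted p = 0.00329). As labelled it was -1.83 ± 0.69 and did not pass (adjusted p = 0.223). As with Vnn1, Null replicate 4 was the highest Null array. The other Null arrays lay below 5.65, the median of all values, so the fold of Cox6b2 is set against weak signals. Rab30, a Golgi GTPase, was lower by -2.07 ± 0.18 (adjusted p = 0.000534), and Qpct, glutaminyl cyclase, by -1.62 ± 0.13 (adjusted p = 0.000332). Their labelled differences, -1.38 ± 0.39 (adjusted p = 0.118) and -0.93 ± 0.37 (adjusted p = 0.24), did not pass. Tmtc2, an endoplasmic reticulum protein, gave the largest negative difference called in the labelled comparison. It read 7.05, 6.67, 6.50, 6.01 and 5.76 in WT replicates 1 to 5 and 3.95, 4.75, 4.39, 5.36 and 4.18 in Null mice, and differed by -1.87 ± 0.28 (3.66-fold, adjusted p = 0.0254) and -2.21 ± 0.28 (adjusted p = 0.00358). All WT arrays lay above all Null arrays, replicates 4 and 5 being the lowest of the WT group. Every Null array of Tmtc2 lay below 5.65, so its fold too is set against weak signals. Evc, a gene of primary cilia, gave the largest positive one, 1.02 ± 0.18 (adjusted p = 0.0405), with 6.00 to 6.87 in WT and 7.23 to 7.76 in Null mice. The labelled call of Tmtc2 was lost without WT replicate 1 or Null replicate 2, 3 or 5. That of Evc was lost without WT replicate 1, 2 or 3 or any Null replicate, and both held under every alternative in the reduced comparison.

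**Figure D4:**
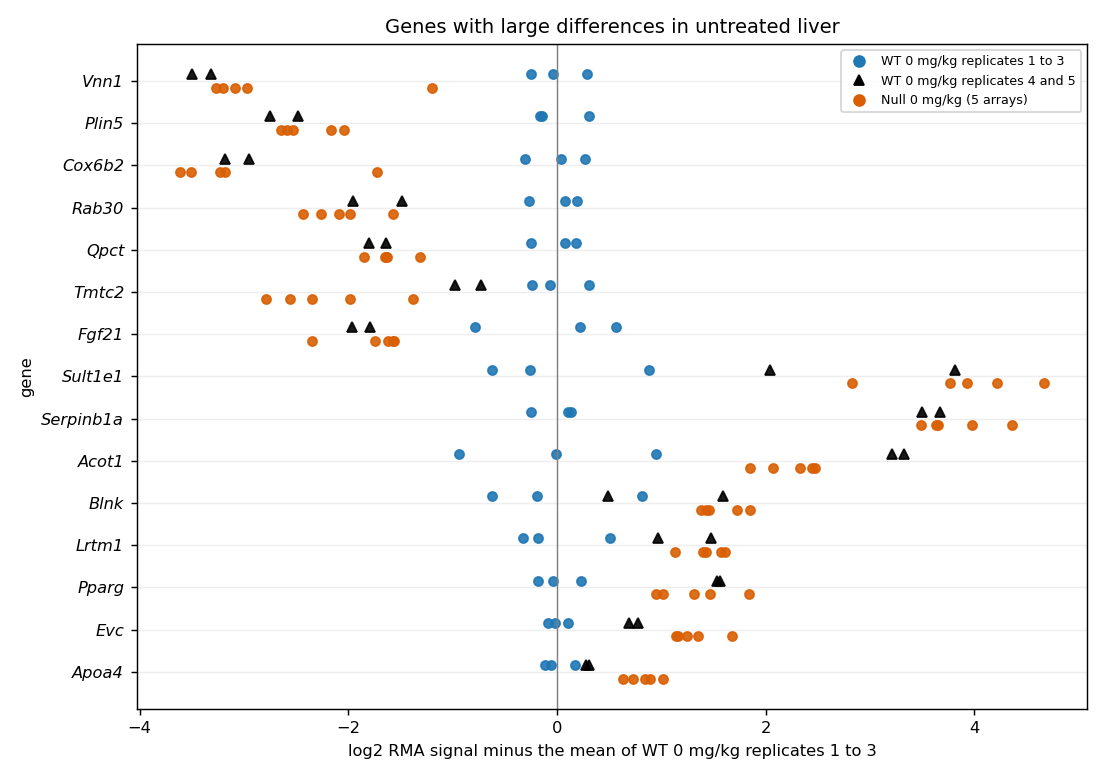
Genes with large differences on the 10 untreated arrays, as log2 RMA signal minus the mean of WT 0 mg/kg replicates 1 to 3. Blue points are WT replicates 1 to 3, black triangles WT replicates 4 and 5 and orange points the 5 Null arrays. The triangles lie with the Null points at Serpinb1a, above them at Acot1, and between the groups at Tmtc2.

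Among genes of fat synthesis 3 of 32 fell in the reduced comparison and 1 as labelled, beside 1.20% and 0.255% of all genes. Srebf1, the transcription factor of lipogenesis, read 9.73, 10.17, 10.17, 9.96 and 10.19 in Null mice and 10.25 to 10.74 in the 5 WT mice, and passed without the doubted arrays (-0.56 ± 0.11, adjusted p = 0.0373) but not with them (-0.52 ± 0.12, adjusted p = 0.0761). Fads2, a desaturase, and Gpam, the first enzyme of glycerolipid synthesis, differed by -0.52 ± 0.11 and -0.37 ± 0.07 in the reduced comparison. As labelled Gpam passed (adjusted p = 0.0418) and Fads2 did not (adjusted p = 0.0531). The labelled call of Gpam was lost without any one of the 10 arrays. Without single arrays the reduced calls were lost for Srebf1 (any WT array, Null replicate 2, 3, 4 or 5), Fads2 (WT replicate 1 or 3, any Null array) and Gpam (any WT array, Null replicate 3 or 5). Abcg5 and Abcg8, which form a transporter that exports cholesterol into bile, fell together in the reduced comparison, by -0.70 ± 0.12 (adjusted p = 0.0153, lost without WT replicate 1 or 2) and -0.76 ± 0.09 (adjusted p = 0.00329). As labelled neither passed, at -0.32 ± 0.22 (adjusted p = 0.514) and -0.21 ± 0.29 (adjusted p = 0.754). For cholesterol synthesis 0 of 22 genes passed in limma in either comparison, beside 0.485% and 2.21% of all genes. An unadjusted p under 0.05 was reached by 4 as labelled and 1 in the reduced one, beside 1967 and 2197 of all 12156 genes. The methods' t-test after adjustment passed 0, beside 27 and 117 of all genes. With so short a list, 0 calls cannot be told from the shares of all genes.

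Genes of xenobiotic metabolism were looked at without Cyp2b10, which was used to set the doubted arrays apart. Over the other 38 target genes of CAR and PXR measured, the mean level was 10.38, 10.34 and 10.28 in WT replicates 1 to 3, 11.33 and 11.37 in replicates 4 and 5, and 10.44 to 10.55 in Null mice. As labelled 1 of them was higher in Null mice and 0 lower, and in the reduced comparison 5 were higher and 0 lower, beside 0.230% and 1.01% of all genes that were higher. The doubted arrays, left out partly for high Cyp2b10, were high over these genes too. The reduced counts are therefore not free of that choice. Sult5a1, a sulfotransferase, was higher in both, by 0.88 ± 0.15 (adjusted p = 0.0354) and 0.86 ± 0.15 (adjusted p = 0.0208). Gstm2, a glutathione transferase, read 10.00, 9.65 and 10.40 in WT replicates 1 to 3, 12.27 and 12.32 in replicates 4 and 5, and 10.81 to 11.05 in Null mice. It rose by 0.93 ± 0.14 in the reduced comparison (adjusted p = 0.0105), as did the cytochromes Cyp2c50 (0.46 ± 0.07), Cyp2c54 (0.61 ± 0.10) and Cyp2c37 (0.94 ± 0.18). As labelled these 4 did not pass, with 0.01, 0.16, 0.22 and 0.27. Those 3 cytochromes are close copies whose probe sets may share signal. In Gstm2 and the cytochromes the doubted WT arrays were higher than any Null array. Single arrays ended the labelled call of Sult5a1 (WT replicate 1, 2 or 4, Null replicate 2, 3 or 4) and the reduced calls of Sult5a1 (WT replicate 2 or 3, Null replicate 3 or 4), Cyp2c50 (WT replicate 1) and Cyp2c37 (WT replicate 2, Null replicate 2, 3, 4 or 5).

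Of 21 genes of retinoid metabolism 2 were higher and 0 lower as labelled, and 2 higher and 1 lower in the reduced comparison, beside 0.230% and 1.01% of all genes that were higher and 0.255% and 1.20% that were lower. The lower gene was Dhrs4, a retinal reductase, at -0.57 ± 0.10 (adjusted p = 0.0191, lost without WT replicate 2), against -0.46 ± 0.10 as labelled (adjusted p = 0.0761). Bco1, which cleaves β-carotene, read 7.15, 6.92, 6.74, 7.01 and 7.05 in WT mice and 7.42, 7.45, 7.65, 7.45 and 7.53 in Null mice, a rise of 0.52 ± 0.08 (adjusted p = 0.0283) and 0.56 ± 0.10 (adjusted p = 0.02). Rdh5, a retinol dehydrogenase, rose by 0.60 ± 0.10 (adjusted p = 0.0327) and 0.68 ± 0.11 (adjusted p = 0.0139). The direct repeat that PPARα and RXR bind was searched on both strands as AGGNCANAGGNCA, in RefSeq windows of 300 bases around the first listed start of each gene (GRCm38.p6). It was found in 31 of the 9811 tested genes with a window (0.316%), in 1 of 123 genes lower in Null mice in the reduced comparison and in 2 of 108 higher ones. Bco1 was the match among the genes called as labelled. Fabp1, the liver fatty acid binding protein, was the match among 46 PPARα targets with a window, and its level did not differ, at 13.74 to 14.02 in WT and 13.79 to 13.93 in Null mice. Both stretches of 150 bases before the start are shown for the contrast of a gene that differed and a gene that did not, on the plus strand, with the repeat (here on the opposite strand) in capitals. The Bco1 stretch is chr8:117095715-117095864 and the Fabp1 stretch is chr6:71199729-71199878. A match in these letters is not a bound site.
Bco1: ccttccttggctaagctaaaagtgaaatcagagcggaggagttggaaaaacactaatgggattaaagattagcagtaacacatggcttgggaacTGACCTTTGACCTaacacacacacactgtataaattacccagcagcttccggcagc
Fabp1: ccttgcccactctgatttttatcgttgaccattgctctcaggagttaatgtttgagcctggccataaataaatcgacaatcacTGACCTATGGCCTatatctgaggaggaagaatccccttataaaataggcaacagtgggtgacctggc
The labelled call of Bco1 was lost without WT replicate 2 or 4 or Null replicate 2, 3, 4 or 5, and the reduced one without WT replicate 2 or 3 or Null replicate 5. For Rdh5 the labelled call was lost without WT replicate 1 or 4 or Null replicate 2, 3, 4 or 5, and the reduced one without WT replicate 1.

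Of 8 other lists 0 genes passed in limma in either comparison, beside 0.485% and 2.21% of all genes. They were cytosolic ribosomal proteins (44), proteasome subunits (38), urea cycle and amino acid breakdown (34), complement and coagulation (42), acute-phase plasma proteins (25), interferon-stimulated genes (26), circadian clock genes (19) and NRF2 targets (27). Over their 252 genes an unadjusted p under 0.05 was reached by 30 as labelled and by 48 in the reduced comparison. Among all 12156 genes it was reached by 1967 and 2197. By the methods' t-test after adjustment 1 gene passed in each, beside 27 and 117 of all genes. The median differences lay between -0.13 and 0.29 as labelled and between -0.14 and 0.19 in the reduced comparison. By sign alone, 39 and 40 of 44 cytosolic ribosomal genes and 27 and 35 of 38 proteasome genes were higher in Null mice. Of 25 acute-phase genes 6 and 0 were higher. Among mitochondrial ribosomal proteins 72 and 74 of 76 were higher, beside 6342 and 6172 of all 12156 genes. Whether a list shifted as a whole was not tested. Mitochondrial ribosomal proteins had 2 of 76 members higher in the reduced comparison, beside 1.01% of all genes, and 0 as labelled. These were Mrpl23 (0.31 ± 0.06, adjusted p = 0.0361) and Mrps15 (0.39 ± 0.08, adjusted p = 0.0455), both lost without any one of WT replicates 1 to 3, and Mrpl23 also without Null replicate 2, 3, 4 or 5 and Mrps15 without Null replicate 1, 2, 3 or 4.

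The treated mice gave the genotype difference again, in other animals. The mice given 3 mg/kg had 1256 called genes (10.3%), of which 757 were higher in Null mice (6.23%) and 499 lower (4.10%). Those given 10 mg/kg had 867 (7.13%), of which 339 were higher (2.79%) and 528 lower (4.34%). Of the 59 genes of the labelled comparison, 54 had the same sign at 3 mg/kg, 91.5% against 58.6% of all genes. At 10 mg/kg 53 did, 89.8% against 58.0% of all genes. The test was passed in the same direction by 30 at 3 mg/kg (50.8% of the 59 and 2.39% of the 1256) and by 28 at 10 mg/kg (47.5% and 3.23%). Of the 269 genes of the reduced comparison (Ppara counted), 241 had the same sign at 3 mg/kg, 89.6% against 55.9% of all genes, and 216 at 10 mg/kg, 80.3% against 51.3% of all genes. Those called in the same direction were 145 (53.9% of the 269 and 11.5% of the 1256) and 118 (43.9% and 13.6%). The treated comparisons hold any response to PFOS that differs by genotype as well.

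Leaving out Ppara, 102 genes were called in one direction in the reduced comparison and at both doses, 73 lower and 29 higher in Null mice. Of the 73 lower genes 18 were on the list of PPARα targets, which held 54 of the 12156 genes tested. Of the 29 higher genes 0 were on it. With so few higher genes and so short a list, that 0 cannot be told from the list's share of all genes. Genes had to be called in the reduced comparison to enter, so the 18 is not free of the choice of arrays. The lower genes were led by Vnn1 (-2.75, -4.91 and -6.27 at 0, 3 and 10 mg/kg), Cox6b2 (-3.05, -4.49 and -4.13), Rab30 (-2.07, -3.03 and -3.26) and Plin5 (-2.40, -2.72 and -2.78). Chrna2, Fitm1, Decr2, Tmtc2 and Qpct followed by the mean of the 3 differences, Tmtc2 with -2.21, -2.24 and -2.05. Of these the untreated call of Chrna2 was lost without any one of the 8 arrays, and that of Fitm1 as given above. The higher genes were led by Sult1e1 (3.88, 3.52 and 3.88) and Serpinb1a (3.82, 3.19 and 2.26), followed by Lrtm1 (1.43, 2.46 and 2.42) and Blnk, a B cell adaptor (1.57, 2.24 and 1.82, its untreated call lost without WT replicate 1). Tafa2, Pcp4l1 and Evc (1.31, 1.13 and 1.22) came next, the untreated call of Tafa2 being lost without WT replicate 1, 2 or 3 or Null replicate 2, 3 or 5. Evc2, a partner of Evc in cilia, was in the same set of 29.

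**Figure D5:**
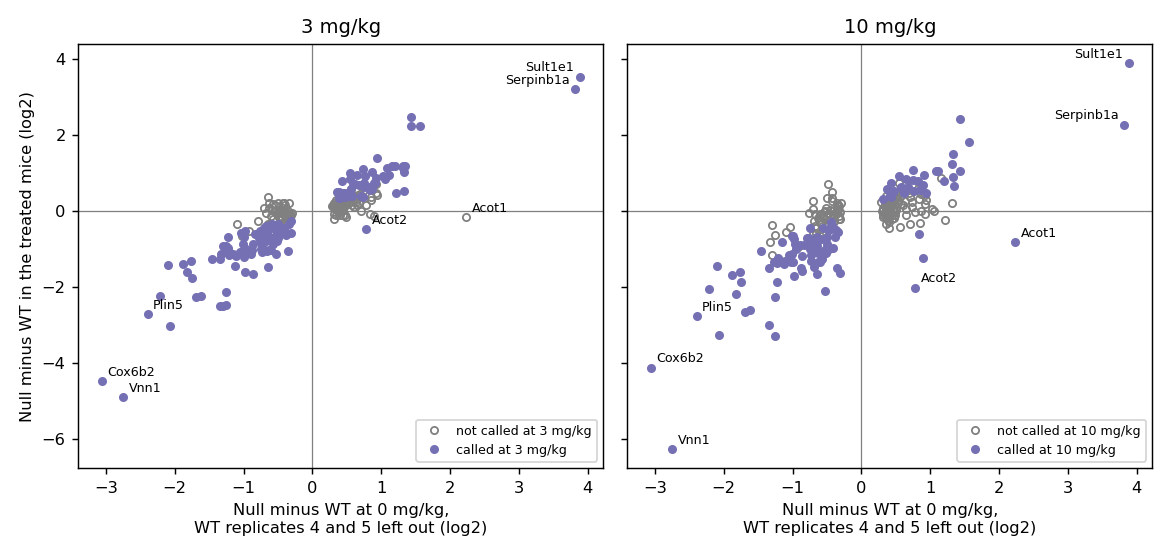
Genotype difference (Null minus WT, log2 RMA signal) of the 269 genes called at 0 mg/kg with WT replicates 4 and 5 left out, against the same difference in the mice given 3 mg/kg (left) and 10 mg/kg (right) PFOS. Filled points were also called in the treated mice, in either direction. Vnn1 and Cox6b2 lie at the lower left and Sult1e1 and Serpinb1a at the upper right of both panels, while Acot1 and Acot2 lie below 0 on the treated axis.

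For some genes the genotype difference of untreated mice was not that of treated mice, and this was tested as the difference between the contrasts (limma, Benjamini-Hochberg). Acot2 went from 0.78 higher in Null mice at 0 mg/kg to -0.49 at 3 mg/kg and -2.03 at 10 mg/kg. The difference at 0 minus that at 10 mg/kg was 2.81 ± 0.18 without the doubted arrays (adjusted p = 3.29e-10) and 2.14 ± 0.35 with them (adjusted p = 0.000818). Pdk4 went from 0.90 to -0.15 and -1.24, a value at 0 minus 10 mg/kg of 2.14 ± 0.37 (adjusted p = 0.00205) and 1.73 ± 0.39 (adjusted p = 0.0153). For Acot1 (2.23, -0.17 and -0.83) the same quantity was 3.06 ± 0.39 without the doubted arrays (adjusted p = 2.9e-05), but with them 1.75 ± 0.70 (adjusted p = 0.188). For the carnitine carrier Slc25a20 the differences of -1.34, -1.27 and -1.50 gave -0.07 ± 0.16 for 0 minus 3 mg/kg and 0.16 ± 0.16 for 0 minus 10 mg/kg, neither of which passed (adjusted p = 0.9 and 0.627).

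Cdpf1, the next measured gene after Ppara along the chromosome in RefSeq order, was also lower in Null mice. It was looked at after its values were seen, together with the 5 measured genes on each side of Ppara. Its difference was -0.42 ± 0.17 as labelled (adjusted p = 0.256) and -0.74 ± 0.07 in the reduced comparison (adjusted p = 0.000839). None of the other 9 neighbours was called in limma in either comparison, their adjusted p-values being at least 0.384 as labelled and at least 0.468 in the reduced one. Linkage to the deleted locus, substrain and the loss of PPARα cannot be told apart at this gene.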

How the data were processed

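Liver RNA of 30 mice was measured on 30 Affymetrix mouse arrays, and the 10 arrays at 0 mg/kg were grouped by their labels. The authors made the deposited log2 values by RMA (background adjustment, quantile normalization, summary) for 45101 probe sets, with no filter. Probe sets were kept (24069) where 5 or more of the 30 arrays exceeded 5.65, the median value. Symbols came from the platform annotation, from probe sets with 1 gene, and each gene took its brightest probe set (12156 genes). Null was compared with WT in limma 3.58.1 (R 4.3.3) on the arrays of each comparison alone, with Benjamini-Hochberg adjustment over all kept probe sets and a threshold of 0.05. Differences are Null minus WT ± SE. Samples are separate mice, and their number limits the precision. The members, the gene lists, the arrays left out and the rule for named genes (the deleted gene, the largest called differences without overlap, the largest of those called at every dose, and list members that were called or had the smallest p) were chosen with earlier results of these data known. Acadm, Cpt1a, Plin2, Cyp4a14, Fabp1, Ehhadh, Hadha, Cdpf1 and Evc2 fell outside that rule and were named after their values were seen. The fits were tested on simulated data. All samples were labelled and hybridized as a single block. The sample labels give no cage and no day of dosing or RNA preparation, so a batch in these was not tested.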

Additional observations from a re-analysis of the deposited data

Results flagged for a closer look

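Dixon's test was run on 69 of the genes described, each in the untreated WT and the untreated Null group. In 11 genes an array stood apart from the other 4 of its group, which chance alone does in about 1 in 20 groups. Each gene gave 2 groups, so 11 was not far from that rate. Arrays that stand apart as a pair, as WT replicates 4 and 5 did at many genes, hide each other in this test. Null replicate 4 was the high array for Etfb (12.44), Vnn1 (6.31) and Cox6b2 (6.66). Null replicate 1 was the low array for Plin2 (12.15), Fgf21 (4.9) and Fabp1 (13.79). The others were Fitm2 in Null replicate 5 (8.06, low), Cdpf1 in Null replicate 2 (6.51, high), Chrna2 in Null replicate 2 (4.25, low), Mrpl23 in Null replicate 1 (10.53, low) and Acadl in WT replicate 2 (11.86, high).

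The genotype difference at 0 mg/kg differed from that in treated mice in limma, with and without WT replicates 4 and 5, for 18 of the 69 genes examined, each with a value at 0 mg/kg that lay above the value at the dose. Among all genes the contrast with 10 mg/kg was called at 3.21% with these arrays and 4.47% without, and that with 3 mg/kg at 1.09% and 0.165%. Some of the 69 genes were named for their mean difference over 0, 3 and 10 mg/kg. The count of 18 and its shared direction are therefore not free of that choice. Without these arrays the difference against 10 mg/kg was 3.52 for Vnn1, 2.81 for Acot2, 2.14 for Pdk4, 2.04 for Chrna2, 1.88 for Ehhadh, 1.66 for Fitm1, 1.58 for Pex11a, 1.46 for Vldlr and 1.19 for Rab30. It was 1.15 for Acot8, which also differed against 3 mg/kg (0.72), 1.04 for Hsd17b11, 0.99 for Qpct, 0.97 for Decr2, 0.73 for Ech1, 0.64 for Plin2, 0.62 for Hadha, 0.52 for Dhrs4 and 0.43 for Fabp1.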

How the results depend on the processing

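As labelled, the 59 calls became 33 with no filter on weak probe sets, 144 with array weights, 169 with all arrays in one fit, 269 without WT replicates 4 and 5, and 26 at 1.5-fold or more. The methods' t-test called 284 at its own threshold and 27 after Benjamini-Hochberg adjustment, and limma 290 at that unadjusted threshold. The reduced comparison's 269 became 179 with no filter, 453 with array weights, 117 by the adjusted t-test and 139 at 1.5-fold or more. At 3 mg/kg, array weights gave 2221 and the t-test 693, or 751 after adjustment. At 10 mg/kg, array weights gave 1861 and one fit of all arrays 1629. Leaving out 1 array gave 2 to 87 calls as labelled, 135 to 295 in the reduced comparison, 622 to 1590 at 3 mg/kg and 498 to 1689 at 10 mg/kg. Replicate numbers did not pair the untreated mice (correlations of same-numbered deviations from -0.08 to 0.13, and 2 of 5 mice closest to their own number), and the replicate block left 0 calls as labelled (2002 at an unadjusted p under 0.05) and 98 in the reduced comparison. The cause of these moves was not tested. Among the genes described, the block ended the reduced calls of Slc22a5, Acads, Etfb, Hsd17b4, Pex11a, Fitm2, Creb3l3, Acot4, Acot8, Vldlr, Srebf1, Fads2 and Gpam. It also ended those of Abcg5, Abcg8, Cyp2c37, Cyp2c50, Cyp2c54, Dhrs4, Bco1, Rdh5, Mrpl23, Mrps15, Chrna2, Blnk, Tafa2 and Evc2. In the reduced comparison, one fit of all arrays ended the calls of Pdk4, Acot8, Gpam, Sult5a1, Gstm2 and Bco1, and shifting arrays to one median that of Acot8, and repeated quantile normalization those of Chrna2, Tafa2 and Mrpl23. One fit of all arrays also ended those of Mrpl23 and Mrps15, trend and robust estimation those of Chrna2 and Tafa2, and leaving out probe sets of several transcripts that of Mrps15. Of 97 named genes called there, 37 passed under every alternative for single genes (without the t-test, the filters and the fold threshold) and 0 turned direction. As labelled, 1 of 36 did: Pex2 (a peroxisome assembly factor) went from 0.34 to -0.088 where probe sets of several transcripts were left out.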
